A study of Mus musculus with 2 samples.

Results

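Cells take up glucose, amino acids and lactate through carrier proteins of the solute carrier (SLC) superfamily. Here 10 genes of these carriers were examined in cells labelled as mouse haematopoietic stem cells, the bone marrow cells that renew all blood lineages. The members were chosen by name: the glucose carrier genes Slc2a1 and Slc2a3, the amino acid carrier genes Slc3a2, Slc7a5, Slc7a6, Slc7a11, Slc1a5, Slc38a1 and Slc38a2, and the lactate carrier gene Slc16a1. All 10 were found among 23961 gene symbols, each as a single deposited row, and all 10 passed the filter, which asks for at least 1 FPKM in either library (FPKM is the fragment count of a gene set relative to transcript length and library size, so levels of different genes can be compared per length). RNA was sequenced in 2 libraries of cells sorted from untreated C57BL/6 mice, 1 labelled wild-type (Per2wt) and 1 labelled Per2-deficient (Per2def). Both genotypes were kept on the same light and dark cycle. The Per2def allele, the age and number of the animals, the time of collection and the sort markers are not known from the labels. The Per2 protein represses the circadian clock, and the question is how RNA levels differ between the genotypes.

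Glucose enters blood progenitors by facilitated diffusion through carriers of the SLC2 (GLUT) family. Large neutral amino acids such as leucine enter through dimers in which a glycoprotein, the CD98 heavy chain encoded by Slc3a2, holds 1 of several SLC7 light chains at the cell surface. Other carriers bring in glutamine and small neutral amino acids with sodium, and their supply feeds the amino acid sensing of the kinase complex mTORC1. Lactate and pyruvate cross the membrane with a proton through carriers of the SLC16 (MCT) family, which need a chaperone such as basigin to reach the surface.

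Each genotype has 1 library and thus no replicates, so no p-value, SD or test is given and each difference compares these libraries, not the genotypes. Differences are log2(FPKM + 1) in Per2def minus that in Per2wt, which shrinks the differences of low genes, and folds are plain ratios of FPKM. Per2 itself had 1.96 FPKM in the Per2wt library and 6.16 FPKM in the Per2def library, higher where a loss of its RNA would make it lower. The directions below are therefore between the libraries as labelled. Read totals are not part of the files, and the absolute depth is unknown. Relative depth can be read from low genes, where whole fragments set the values. Among 3232 low genes the commonest ratio, Per2def over Per2wt, was 0.805, the value for a library of Per2def with 1.24 times the depth. The labelled cell type was checked on 14 stem and progenitor markers, of which 11 were at 1 FPKM or more. Cd34 stood at 90.5 FPKM in Per2wt and 83.9 in Per2def, and Flt3, a marker of multipotent progenitors, at 48.8 and 51.4 FPKM. Slamf1, Fgd5 and Hoxb5, defining markers of the most primitive cells, were under 1 FPKM in both libraries. In bulk RNA, fewer cells of a type and less RNA per cell cannot be told apart.

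The 10 transporter genes stood at nearly the same level in both libraries. Their FPKM summed to 124.7 in Per2wt and 131.8 in Per2def, 1.06-fold higher. No member differed by 2-fold in FPKM + 1 in either direction, against a background of 2.25% of 11121 measured genes, or 0.409% of the 10034 that are not small or predicted RNAs. None passed a threshold of 25% either (FPKM + 1 at least 25% higher in one library than in the other). The background there was 8.20% of genes higher in Per2def and 4.38% lower, 12.6% in all, so that about 1 member in 10 would be past it at that rate. This background includes small and predicted RNAs, and the share among genes of like level to the members was not computed. A total of 8 members were higher in Per2def and 2 lower, beside 62.0% of all measured genes higher. The median difference of the members was 0.06, against 0.05 for all measured genes. After scaling the libraries by the median of ratios 5 members were higher, and these medians were 0.007 and 0.003. How many of all measured genes were higher after scaling was not computed. The median of the members thus lay near that of all measured genes, with and without this scaling. The count is over 10 genes only and is not read further.

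**Figure D1:**
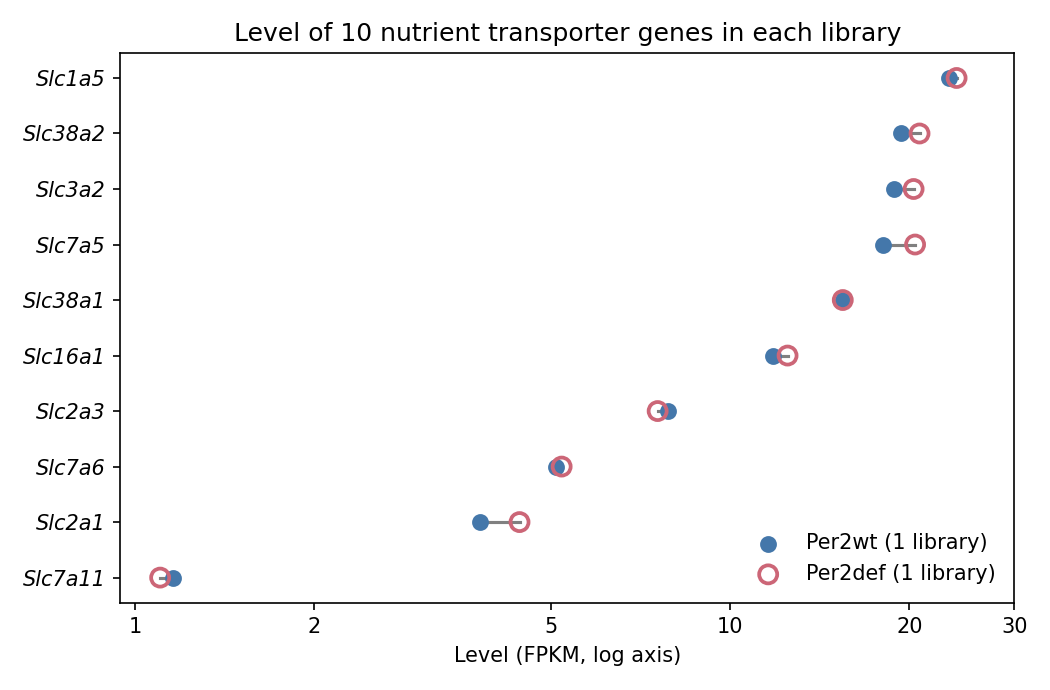
Level of each of the 10 transporter genes (FPKM, log axis) in the Per2wt library (filled blue) and the Per2def library (open red), 1 library each, with a grey line joining the 2 values. The circles of Slc38a1 coincide at 15.5 FPKM, and the longest line on this log axis, that of Slc2a1, runs from 3.81 to 4.43 FPKM.

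In order of level, Slc1a5 was the most abundant member in both libraries and Slc7a11 the least, 20.1 times lower in Per2wt and 21.8 times lower in Per2def. Slc38a2, Slc3a2 and Slc7a5 followed Slc1a5 within 18.1 to 19.3 FPKM in Per2wt and 20.3 to 20.8 FPKM in Per2def. Steps between neighbours within this trio were smaller than the difference of the same genes between the libraries, and Slc3a2 and Slc7a5 traded places, so their order is not resolved. The other neighbours in the order, down through Slc38a1, Slc16a1, Slc2a3, Slc7a6 and Slc2a1, kept the same order in both libraries, with steps wider than the difference between libraries. Against all measured genes, Slc1a5 lay at the 86.7th percentile of mean level and Slc7a11 at the 4.26th.

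Of the glucose carriers, Slc2a1 had the widest difference of the 10 members and Slc2a3 went the other way. Slc2a1 encodes GLUT1, the carrier of basal glucose uptake in many cell types (ENSMUSG00000028645.11, chromosome 4, 119108711 to 119137983, GRCm38). Its level was 3.81 FPKM in Per2wt and 4.43 in Per2def, 1.16-fold higher (log2 difference 0.18). Among 4613 measured genes within 2-fold of its mean level, small and predicted RNAs left out, 35.0% differed between the libraries by as much or more. Slc2a1 thus lay well inside the differences that genes of like level showed. In the annotation 105 bases of its exons overlap an exon of the antisense gene Gm12868, and whether the authors counted by strand is not stated. Slc2a3 encodes GLUT3, a high-affinity glucose carrier (ENSMUSG00000003153.10, chromosome 6, 122727809 to 122801640). Its level was 7.87 FPKM in Per2wt and 7.55 in Per2def, 0.959-fold (difference −0.05). Per transcript length, Slc2a3 RNA exceeded Slc2a1 RNA in both libraries, by 2.07-fold in Per2wt and 1.71-fold in Per2def.

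The 2 genes together held most of the RNA of the SLC2 family. Slc2a3 gave 48.2% of the summed FPKM of 12 SLC2 genes in Per2wt and 42.5% in Per2def, and Slc2a1 23.3% and 24.9%. Next came Slc2a8, which encodes an intracellular hexose carrier, at 1.95 and 2.48 FPKM (0.24), and the urate and hexose carrier gene Slc2a9, at 1.51 and 1.94 FPKM (0.23). The insulin-responsive carrier gene Slc2a4 was at 0.183 and 0.201 FPKM, and Slc2a7 was listed at 0 in both. The liver and gut carrier genes Slc2a2 and Slc2a5 both had a ratio of 0.805 to within 0.2%, the ratio that equal numbers of fragments in the libraries would give. Slc2a12 and Slc2a13 stood at 1.5 times that ratio, or 3 fragments to 2. At such levels, all under 0.03 FPKM, values move in steps of single fragments.

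The heavy chain gene Slc3a2 and its most abundant light chain gene, Slc7a5, were both slightly higher in Per2def. Slc3a2, the heavy chain (ENSMUSG00000010095.13, chromosome 19, 8706882 to 8723369), was at 18.8 FPKM in Per2wt and 20.3 in Per2def, 1.08-fold (0.10). Slc7a5 encodes LAT1, the light chain that exchanges glutamine inside for leucine and other large neutral amino acids outside (ENSMUSG00000040010.10, chromosome 8, 121881150 to 121907694). It was at 18.1 FPKM in Per2wt and 20.4 in Per2def, 1.13-fold (0.17), the second widest member difference. Among 2713 measured genes of like level 27.2% differed by as much or more, the smallest such share of any member. RNA of Slc7a5 and Slc3a2, partners in 1 dimer, stood near parity per transcript length, at a ratio of 0.959 in Per2wt and 1.01 in Per2def.

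Other light chains were lower in level. Slc7a6 encodes y+LAT2, which exchanges arginine and other cationic amino acids for neutral ones (ENSMUSG00000031904.5, chromosome 8, 106168857 to 106198706). It was at 5.09 FPKM in Per2wt and 5.21 in Per2def, 1.02-fold (0.03), a direction that turned to −0.02 when the libraries were scaled by the median of ratios and to −0.002 by the upper quartile. Slc7a5 RNA exceeded Slc7a6 RNA by 3.55-fold and 3.92-fold. Among the 6 SLC7 genes whose products pair with the heavy chain, Slc7a5 held 66.1% of the summed FPKM in Per2wt and 65.9% in Per2def, and Slc7a6 18.6% and 16.8%. The sum of these light chains stood at 1.45 times the level of Slc3a2 in Per2wt and 1.53 times in Per2def. Slc7a8, the LAT2 light chain gene, was low and had the widest difference of the SLC7 genes, at 1.72 against 2.72 FPKM (0.45), whereas Slc7a10 was listed at 0 in both libraries.

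Slc7a11 encodes xCT, the light chain that imports cystine in exchange for glutamate and so supplies glutathione synthesis (ENSMUSG00000027737.10, chromosome 3, 49892526 to 50443614). It was the lowest member, at 1.16 FPKM in Per2wt and 1.10 in Per2def, 0.952-fold (−0.04), and it gave 4.23% and 3.55% of the SLC7 light chain RNA. At a given transcript length low values carry more counting error, which cannot be computed without depth. The promoter of Slc7a11 is shown because it holds 2 copies of the letters of an amino acid response element (TGATGCAA or its reverse complement), the kind of site that the stress factor ATF4 binds. Bases 106 to 1 before the RefSeq start site (GRCm38.p6, chr3:50443614-50443719, minus strand) are printed 5′ to 3′, with both copies in capitals.
Slc7a11 promoter: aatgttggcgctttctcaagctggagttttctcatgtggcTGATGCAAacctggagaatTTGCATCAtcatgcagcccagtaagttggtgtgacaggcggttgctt
The copies begin 66 and 47 bases before the start site and lie on opposite strands. Of 32851 RefSeq promoter windows of 250 bases before a start, 0.791% hold TGATGCAA on either strand and 2 windows hold 2 or more copies. Atf4 RNA was at 40.8 FPKM in Per2wt and 42.2 in Per2def (0.05). RNA level does not report ATF4 protein, and a match is a description of letters, not of binding.

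The sodium-coupled amino acid carriers ranked between the first and the fifth place in level among the members. Slc1a5 encodes ASCT2, an exchanger of neutral amino acids that takes up glutamine (ENSMUSG00000001918.17, chromosome 7, 16781340 to 16798274). It was at 23.3 FPKM in Per2wt and 24.0 in Per2def, 1.03-fold (0.04), and turned to −0.01 under scaling by the median of ratios. It held 95.1% of the RNA of the 7 SLC1 genes in Per2wt and 93.0% in Per2def, and the other 6 were under 1 FPKM in both libraries. Slc38a1 encodes SNAT1 (ENSMUSG00000023169.15, chromosome 15, 96571418 to 96642913). Its level was the same to 3 digits in both libraries, at 15.5 FPKM (1.00-fold, 0.0003), and it counted as lower under all 3 scalings tried. Slc38a2 encodes SNAT2, the system A carrier that cells raise when amino acids run short (ENSMUSG00000022462.7, chromosome 15, 96687392 to 96699730). It was at 19.3 FPKM in Per2wt and 20.8 in Per2def, 1.08-fold (0.10). Slc38a1 and Slc38a2 lie 44.5 kb apart on the same strand, and Slc38a1 RNA stood at 79.9% of the level of Slc38a2 RNA in Per2wt and 74.3% in Per2def.

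Within the SLC38 family the members differed less than a relative outside the set. Slc38a5 encodes SNAT5, a carrier of glutamine, asparagine and histidine. It was at 6.32 FPKM in Per2wt and 10.1 in Per2def, 1.60-fold (0.61). In log2(FPKM + 1) this was the widest difference of the 40 measured genes of the carrier lists, chaperones included. As a plain ratio that of Slc16a12, 0.485, was wider. Slc38a5 gave 9.77% of the SLC38 sum in Per2wt and 14.2% in Per2def. Slc38a1 gave 23.9% and 21.7%, and Slc38a2 29.9% and 29.2%. Slc38a10, at 17.8 and 18.6 FPKM (0.06), was as abundant as the members, and Slc38a9, which encodes the lysosomal arginine sensor of mTORC1, was at 1.86 and 2.13 FPKM (0.13). Markers of other cell types differed in the same comparison. Without globins 9 of 10 measured erythroid markers were higher in Per2def, beside 62.0% of all measured genes, and the whole list of 11 summed to 406 FPKM in Per2wt and 593 in Per2def. The 9 globin rows summed to 437 and 214 FPKM. Of 11 measured neutrophil markers 10 were higher, beside the same 62.0%, and the list summed to 520 and 995 FPKM, with S100a8 at 109 and 266 FPKM and Retnlg listed at 0 in Per2def. Other lists were smaller sums, at 55.0 and 69.7 FPKM for monocyte and macrophage markers. Platelet and megakaryocyte markers summed to 46.2 and 36.9 FPKM, or 37.5 and 36.0 without Thbs1. T and NK cell markers summed to 37.5 and 46.1 FPKM, mostly from Nkg7 (23.7 and 28.4) and Lat (8.75 and 9.26). In that list 3 of 8 were under 1 FPKM in both libraries. B cell markers summed to 6.63 and 6.30 FPKM, mostly from Cd79b (6.00 and 5.29), and 5 of 6 were under 1 FPKM in both. Ms4a1 was listed at 0 in Per2wt and Pax5 at 0 in Per2def. The part of these cells in any carrier difference was not tested.

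**Figure D2:**
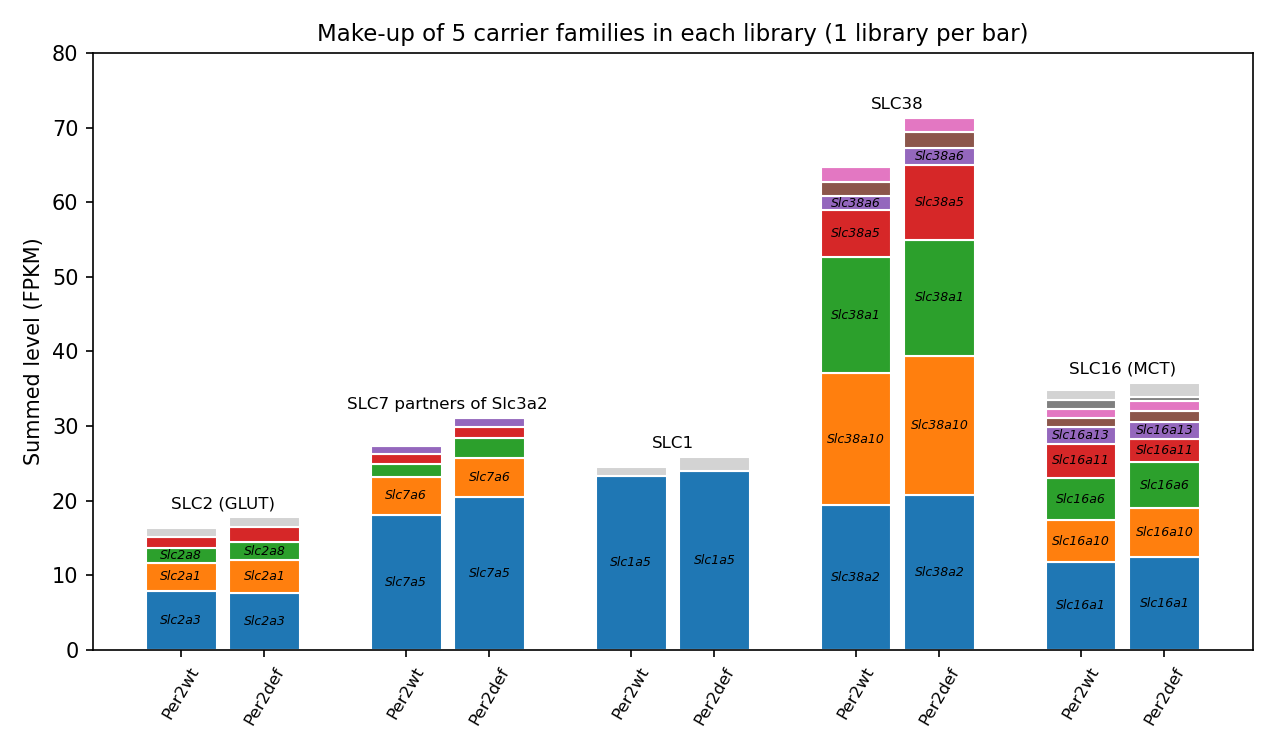
Summed level (FPKM) of 5 carrier families in each library, 1 library per bar, with segments for measured genes (named where at least 1.9 FPKM in both) and light grey for the rest. Slc1a5 makes up nearly all of its family, and Slc38a5 widens from 6.32 to 10.1 FPKM while Slc38a1 and Slc38a2 keep nearly the same height.

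Slc16a1 encodes MCT1, which carries lactate, pyruvate and ketone bodies with a proton (ENSMUSG00000032902.1, chromosome 3, 104638668 to 104658462). It was at 11.8 FPKM in Per2wt and 12.5 in Per2def, 1.06-fold (0.07), and was the most abundant SLC16 gene, with 33.9% of the family sum in Per2wt and 34.9% in Per2def. The gene of the lactate exporter MCT4, Slc16a3, was at 1.28 and 1.53 FPKM (0.15), so Slc16a1 RNA exceeded it by 9.25-fold and 8.14-fold. Chaperone RNA was more abundant than that of any carrier in these lists. Bsg, which encodes basigin, was at 56.4 and 65.8 FPKM (0.22), and Emb, embigin, at 32.5 and 30.6 FPKM (−0.08). The widest SLC16 differences were in Slc16a12, at 1.16 against 0.564 FPKM (−0.47), and Slc16a11, at 4.49 against 3.09 FPKM (−0.42), both lower in Per2def. The promoter of Slc16a1 is shown because, of the 6 members matched in the RefSeq promoter table, it alone holds the E-box letters CACGTG, a sequence that the clock activators CLOCK and BMAL1, as well as MYC, can bind. Bases 240 to 155 before the start site (GRCm38.p6, chr3:104638424-104638509, plus strand) are printed 5′ to 3′, with the E-box in capitals.
Slc16a1 promoter: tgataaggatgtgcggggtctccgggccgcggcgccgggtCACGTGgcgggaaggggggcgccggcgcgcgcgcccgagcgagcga
The E-box begins 200 bases before the start, and 6.02% of all promoter windows of 250 bases hold one on either strand. The letters TGACTCA (an AP-1 site, present in 4.46% of windows) were in none of the 7 windows of the matched members Slc2a1, Slc3a2, Slc7a6 (2 start sites), Slc7a11, Slc38a2 and Slc16a1. Slc2a3, Slc7a5, Slc1a5 and Slc38a1 had no entry.

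Among the wider set of nutrient carriers most measured genes were a little higher in Per2def and few by much. The set comprises lists of glucose and hexose, SLC7 and heavy chain, SLC1, SLC38, other amino acid and monocarboxylate carriers with their chaperones. Of 79 genes found other than the members 30 were measured at 1 FPKM or more, 23 higher and 7 lower beside 62.0% of all measured genes higher, with a median of 0.12 against 0.05 for all measured genes. Scaling by the median of ratios left 21 higher and a median of 0.08, against 0.003 for all measured genes. The share of all measured genes higher under this scaling was not computed, and the 62.0% is without scaling. No gene of this set differed by 2-fold in FPKM + 1, although the plain ratio of Slc16a12 was 0.485. At the 25% threshold Slc38a5 and Slc7a8 were higher and Slc16a11 and Slc16a12 lower, 4 of 30 beside a background of 12.6% either way. In the list of other amino acid carriers, Slc43a3 was at 13.9 and 16.5 FPKM (0.23), the large neutral amino acid carrier gene Slc43a1 at 6.93 and 8.17 FPKM (0.21), Slc36a4 at 1.21 and 1.74 FPKM (0.31), and the taurine carrier gene Slc6a6 at 8.21 and 8.93 FPKM (0.11). Slc7a1, which encodes the cationic amino acid carrier CAT1, was at 6.34 and 7.35 FPKM (0.19), Slc7a7 at 1.32 and 1.53 FPKM (0.13) and Slc7a14 at 2.89 and 2.88 FPKM (−0.005). Of the glucose 6-phosphate carrier genes, Slc37a1 was at 3.88 and 4.38 FPKM (0.14) and Slc37a4 at 4.19 and 4.38 FPKM (0.05).

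**Figure D3:**
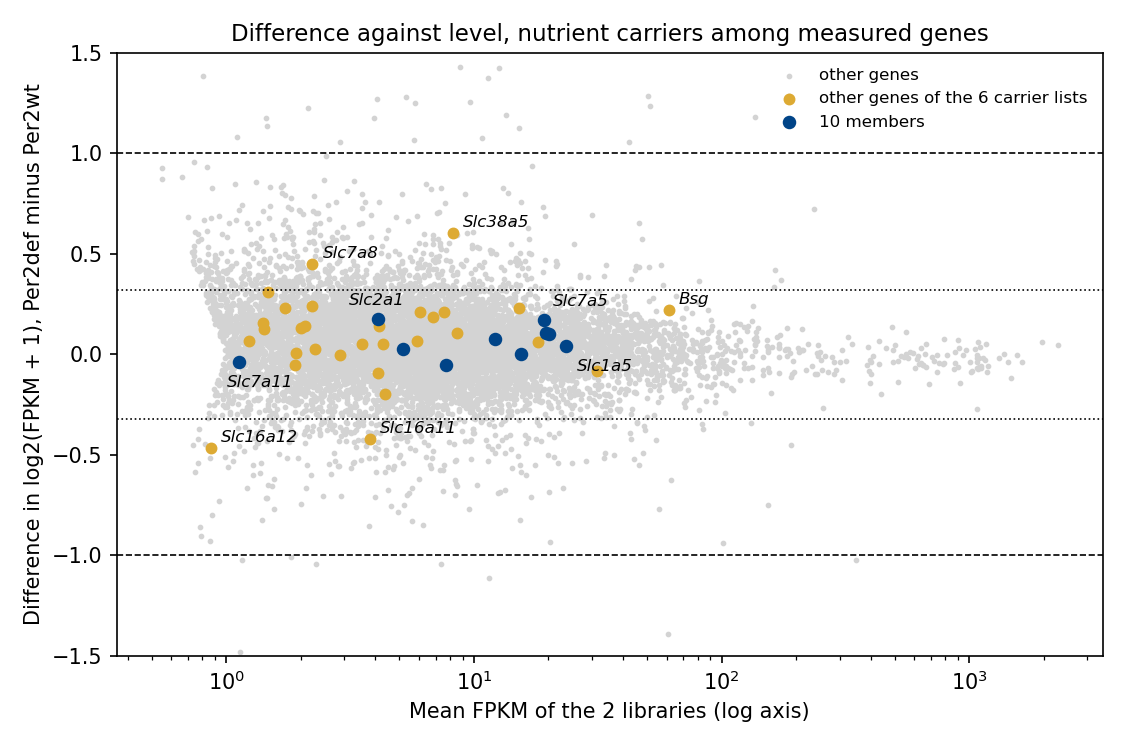
Difference in log2(FPKM + 1), Per2def minus Per2wt, against mean FPKM of the 2 libraries (log axis) for the 10 members (blue), other genes of the carrier lists (yellow) and other measured genes (grey; small and predicted RNAs left out and 10 genes outside the plotted range), with dashed lines at 2-fold and dotted lines at the 25% threshold. All 10 members lie between the dotted lines, from −0.05 to 0.18.

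Genes that act on carriers or use what they carry, in lists of more genes, spanned a wider range of differences than the 10 members. Of 17 measured regulators 8 were higher and 9 lower in Per2def, beside 62.0% of all measured genes higher, with a median of −0.01. Under scaling by the median of ratios, where the median of all measured genes was 0.003, 5 regulators were higher. For that count the share of all measured genes was not computed. Txnip encodes an arrestin-like protein that drives GLUT1 off the cell surface, and was at 55.6 FPKM in Per2wt and 37.7 in Per2def (−0.55). Its relative Arrdc3 was at 3.71 and 2.60 FPKM (−0.39). These were the only regulators past the 25% threshold, 2 of 17 beside a background of 12.6%. Myc, which encodes an activator of several of these carrier genes, was at 67.2 and 60.3 FPKM (−0.15). Nfe2l2, which encodes NRF2, an activator of Slc7a11, was at 13.3 and 15.9 FPKM (0.24).

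In the mTORC1 sensing list 22 of 32 measured genes were higher, beside 62.0% of all measured genes, and the median was 0.06 beside 0.05. The leucine sensor and stress gene Sesn2 alone passed the 25% threshold (background 12.6%), at 1.55 against 2.50 FPKM (0.46). Mios, a subunit of the GATOR2 complex, was at 4.09 and 4.98 FPKM (0.23), the Rag GTPase gene Rragb at 2.29 and 2.84 FPKM (0.22), the Ragulator subunit gene Lamtor2 at 45.7 and 46.6 FPKM (0.03) and Sec13 at 19.3 and 20.7 FPKM (0.10). Of 22 measured enzyme genes that use the carried substrates 17 were higher (median 0.09), beside 62.0% of all measured genes. Under scaling by the median of ratios or the upper quartile 12 were higher, where the median of all measured genes was 0.003 or 0.02. No share of all measured genes was computed under these scalings. Without scaling, the 25% threshold was passed by 4 that were higher and 1 lower, beside backgrounds of 8.20% and 4.38%. Asns, asparagine synthetase, at 11.2 against 16.9 FPKM (0.55), and Asl, argininosuccinate lyase, at 5.39 against 8.04 FPKM (0.50), were among the higher. Ass1, the enzyme gene 1 step before Asl in arginine synthesis, was lower, at 8.11 against 5.38 FPKM (−0.51). The lactate dehydrogenase gene Ldha stood at 134 and 143 FPKM (0.09) and Phgdh, the first enzyme of serine synthesis, at 53.5 and 54.4 FPKM (0.02).

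**Figure D4:**
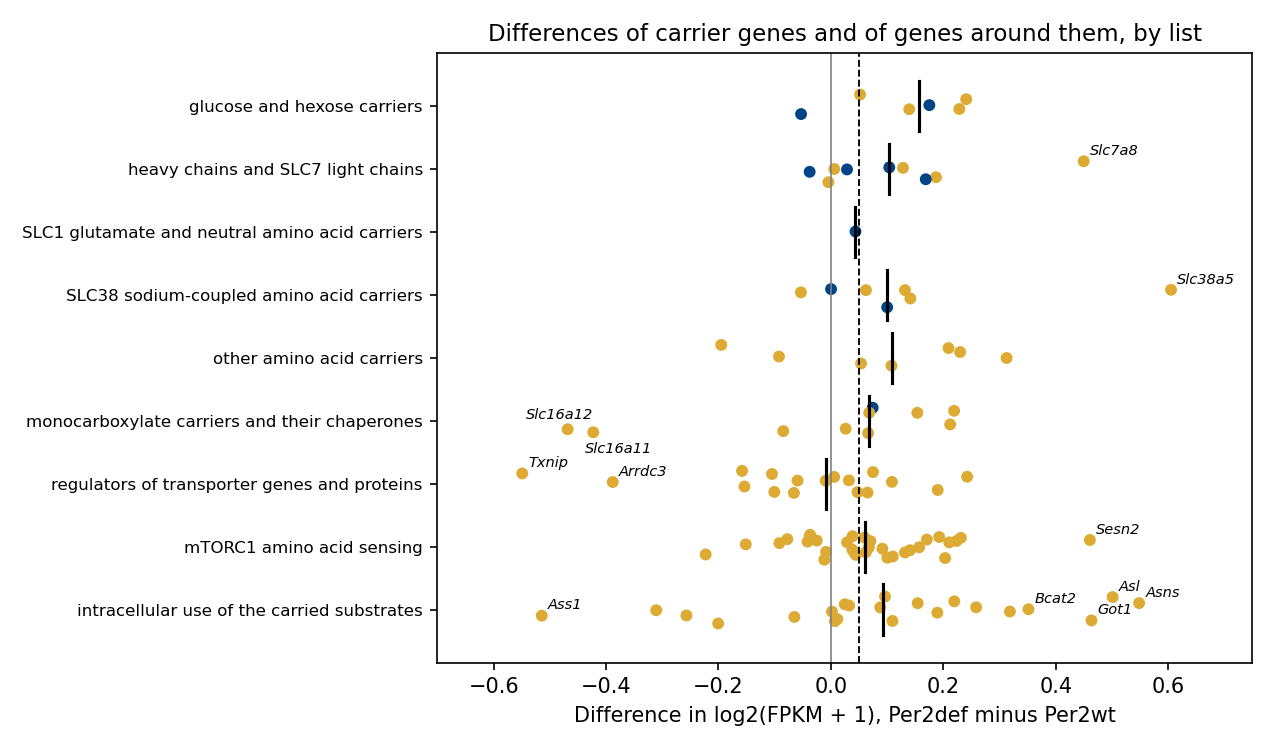
Difference in log2(FPKM + 1), Per2def minus Per2wt, of each measured gene, by list (members blue, other genes yellow), with a black bar at each list's median, a grey line at 0 and a dashed line at the median of all measured genes (0.05). Genes past the 25% threshold are named, and none of them is a member.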

How the data were processed

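Per the labels' protocols, the libraries hold polyadenylated RNA, captured on oligo(dT) beads from a TRIzol extract, and the kit marks strand. FPKM per gene were computed by the authors with Cufflinks and deposited. Per the submitters' processing notes, the other tools were CASAVA 1.8, Bowtie2 and TopHat, on build mm10 or GRCm38. The annotation, other versions and whether counting used strand are not stated.

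Each file held 24487 rows. Left out were all rows of 9 symbols that lack an estimate in either file, and 27 rows with date-like symbols. Rows with one symbol were added up. Python 3.11.15, pandas 2.3.3 and numpy 2.4.6 were used. Groups follow the genotype label. Genes reaching 1 FPKM in either library (11121) count as measured, with a pseudocount of 1 FPKM. GENCODE M21 (GRCm38) gave the coordinates of genes, and promoters are from RefSeq (GRCm38.p6). Small and predicted RNAs (1087 measured) were recognised by symbol alone. Of the list symbols Slc66a1, Castor1 and Castor2 were found under older names also listed, and Kyat1 was not matched.

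Named genes were all members and, from each list, the 3 with the widest difference and the 2 most abundant, with the 2 most abundant markers of each cell type and defining stem cell markers. Slc2a2, Slc2a4, Slc2a5, Slc2a7, Slc2a12, Slc2a13, Slc7a10, Slc16a3, Atf4, Retnlg, Thbs1, Ms4a1 and Pax5 are outside this rule and were picked with their values in view. Not every named marker is printed. The members and lists were chosen with earlier results of these data known. The direction of differences was checked on simulated data with changes wider than 2-fold, which does not test smaller differences or low genes. Alternatives were other pseudocounts, scalings, filters and fold thresholds, and the highest row per symbol.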

Additional observations from a re-analysis of the deposited data

How the results depend on the processing

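No alternative put a member past the 25% threshold or the folds of 1.5 and 2, and the widest member difference under any of them was 0.21, for Slc2a1 with a pseudocount of 0.1 FPKM. The count of members higher in Per2def was 8 of 10 without scaling. Scaling by the median of ratios gave 5, the upper quartile 6 and an equal total without small and predicted RNAs 7. With a floor of 5 FPKM, which left 8 members, 7 were higher. The median of ratios turned Slc7a6 to −0.0172, Slc1a5 to −0.00952 and Slc38a1 to −0.0512. The SLC1 list, which holds no measured gene other than Slc1a5, turned with it. Scaling by the upper quartile turned Slc7a6 to −0.00172 and Slc38a1 to −0.0338, and an equal total without small and predicted RNAs turned Slc38a1 to −0.00774. These scalings lower every Per2def value by one factor. The median of the members stayed between 0.007 and 0.06. The median of the glucose and hexose list turned to −0.0531 with a floor of 5 FPKM, which leaves Slc2a3 as its single gene. Of all genes 139 were at least 2-fold higher and 111 lower. A total of 217 were higher with a pseudocount of 0.1 FPKM. At 1.5-fold 290 were higher and 189 lower, and at the 25% threshold 912 and 487. Without small and predicted RNAs 25 and 16 were past 2-fold. No paired analysis was possible because each genotype has 1 library, and for the same reason no library could be left out. Absolute depth is unknown, which limits what can be read from low genes such as Slc7a11 and Slc2a1. Fragments depend on transcript length as well as on FPKM. The annotated transcript with the longest coding part spans 9223 bases in Slc7a11 and 3260 in Slc2a1.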

Other observations

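Solute carrier genes outside the carrier lists were described after their values had been seen. Of 249 such symbols 121 were measured at 1 FPKM or more, 83 of them higher in Per2def and 38 lower, beside 62.0% of all measured genes higher. Their median was 0.06, against 0.05 for all measured genes. At the 25% threshold 15 were higher and 3 lower, beside a background of 8.20% and 4.38% of all measured genes, and none differed by 2-fold in FPKM + 1. Among those at a mean of 5 FPKM or more the widest difference was in Slc25a38, which encodes the mitochondrial glycine carrier of heme synthesis, at 5.69 FPKM in Per2wt and 8.20 in Per2def (0.46). Slc50a1, a sugar carrier gene, was at 14.8 and 18.8 FPKM (0.32). Slc25a36 was at 6.42 and 7.95 FPKM (0.27), and the iron carrier gene Slc11a2 at 5.69 and 7.05 FPKM (0.27). The urea carrier gene Slc14a1 was at 10.3 and 12.2 FPKM (0.22). Further genes of like difference, such as Slc30a9 (0.21), are not all named. Slc18a2, which encodes the vesicular monoamine carrier, was lower, at 7.07 and 5.93 FPKM (−0.22), as was the organic cation carrier gene Slc22a3, at 15.7 and 13.8 FPKM (−0.17).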
